A study of Mus musculus with 6 samples.

Results

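The comparison described here is that of mRNA in plasma of mice with heart failure (HF) and in plasma of control mice. It rests on 2 of the 6 arrays of the series, 1 for each condition, and on the 3470 mRNA genes whose probes could be named. The HF group was male C57BL/6J mice that received isoproterenol, an agonist of β-adrenergic receptors, under the skin for 1 week, and the control group was mice of the same strain and sex that received saline. Their age is not given in the sources used here. RNA of several mice was mixed before hybridisation, so that each array is 1 pool and no spread between animals was measured. The blood was drawn after removal of an eyeball, and the plasma was passed through a filter before RNA extraction. The question was which mRNAs in plasma differ in acute HF, and the arrays of whole blood of the same 2 groups were set beside them.

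Plasma is blood without its cells. The mRNA left in it is known to be carried by vesicles, by protein complexes and by fragments of cells, and RNA that is not protected is quickly cut by nucleases. In mouse whole blood the largest share of mRNA comes from reticulocytes, the young red cells that still make hemoglobin, with smaller shares from platelets, neutrophils and lymphocytes. Nppb encodes brain natriuretic peptide, which stressed cardiomyocytes release. A change in the mRNA of a cell type in such a mixture can be a change in the number of those cells or in the RNA that each gives, and these cannot be told apart.

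The 2 genes below stand for the hemoglobin genes, the list with the lowest median difference, and for neutrophil genes, most of which were higher in HF plasma. Hba-a1 encodes an α-globin and was bright in control plasma. S100a9 encodes a calcium-binding protein of neutrophils and was brighter in HF plasma. The 250 bases before their start sites are from RefSeq (GRCm38.p6), at chr11:32283422-32283671 on the plus strand and chr3:90695722-90695971 on the minus strand. The build named on the arrays is an older one, mm9. Capitals mark CACCC, a motif of KLF factors, AGATAA, one of GATA factors, and TTNNGNAA, one of C/EBP factors, on either strand and without overlap between motifs.
Hba-a1: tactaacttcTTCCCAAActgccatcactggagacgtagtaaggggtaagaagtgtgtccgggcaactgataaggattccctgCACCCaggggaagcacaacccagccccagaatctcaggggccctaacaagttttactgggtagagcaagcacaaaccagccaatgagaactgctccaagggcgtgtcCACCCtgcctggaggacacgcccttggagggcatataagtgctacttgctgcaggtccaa
S100a9: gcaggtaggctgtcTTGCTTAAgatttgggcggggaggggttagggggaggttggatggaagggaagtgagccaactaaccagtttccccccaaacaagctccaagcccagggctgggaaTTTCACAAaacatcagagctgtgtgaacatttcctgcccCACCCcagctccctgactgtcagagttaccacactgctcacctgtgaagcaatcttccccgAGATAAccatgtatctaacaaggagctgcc
The Hba-a1 window held 2 matches of CACCC, 1 of TTNNGNAA and 0 of AGATAA. The S100a9 window held 1, 2 and 1. Among 32851 mouse promoters of this length, 52.0% held CACCC, 36.8% TTNNGNAA and 9.99% AGATAA, so that a match is a description of the letters and not a site.

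The labels of the plasma arrays were checked against the other arrays before any difference was read. Both plasma arrays were hybridised on different slides: control plasma shared its slide and scan with control whole blood, and HF plasma shared a slide and scan with HF whole blood and both hearts. Slide and HF therefore cannot be told apart between the plasma arrays, and plasma was also set against whole blood within each slide. Levels are given as log2 of the intensity after quantile normalization over the 6 arrays. On the control slide, plasma lay within 2-fold of whole blood for 94.9% of the 1482 genes that were detected on all 4 blood arrays. On the HF slide, the share was 28.9%, with 39.9% of these genes at least 2-fold above whole blood and 31.1% at least 2-fold below. Across the 3470 genes, Spearman's rho was 0.94 for control plasma with control whole blood, 0.72 for control plasma with HF whole blood, 0.51 between both plasma arrays and 0.45 between HF plasma and HF whole blood. HF whole blood had a rho of 0.56 with control heart and 0.54 with HF heart, against 0.46 and 0.37 for control whole blood. The 3470 genes share arrays, slides and normalization, and the coefficients are descriptions. The library labelled control plasma thus carried the red cell profile of whole blood: Hbb-b1, a β-globin, stood at 17.58 in plasma and 17.64 in whole blood of the controls. Whether cells were left in this plasma cannot be told from these data, and each plasma difference below is read against this library. Differences within the HF slide are read against HF whole blood. All 22 cardiomyocyte genes followed below were detected on that array, against 7 in control whole blood. Among the 1953 genes detected on both plasma arrays, HF plasma exceeded each of the other 5 arrays by 2-fold or more for 440 and lay as far below all of them for 163. For control plasma these counts were 4 and 3, for control whole blood 6 and 33 and for HF whole blood 117 and 69. For control heart they were 27 and 33 and for HF heart 41 and 284. Control plasma and control whole blood lay close together, so that neither could often stand apart from all other arrays, and their counts are no contrast to those of HF plasma.

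The arrays also differed in brightness. The 75th percentile of the signal was 48.9 on the control plasma array and 29.4 on the HF plasma array, and 25588 of 61194 spots of HF plasma shared the lowest signal of 4.25, so that levels of 2.65 there have no order. Detection required the software's well-above-background flag and no outlier flag on the spot. Of the 3470 genes, 2859 were detected in control plasma and 2330 in HF plasma. Control heart detected 98.3% of them against 47.3% of all probes, so the genes with a name favour those present in heart. Negative control spots were well above background on 4.33% of 1200 spots of control plasma and 12.4% of HF plasma. Low levels in HF plasma are therefore less certain than the flag implies. The 99th percentile of the negative control spots was 39.5 on the control and 111 on the HF plasma array, and 1005 of the 1953 genes detected on both were brighter than that on each. Folds of the other genes are set against a level within the range of these spots. Of the genes named below, this holds in HF plasma for Hbb-b1, Hba-a2, Bnip3l, Car1, Gp5, Gp1bb, Mnda, Atp2a2, Tnnt2, Npr1, Cox6a2, Cox7a2, F7, F10, Nr4a2, Socs3, Cxcl2, Ifi47, Dcn, Tspyl1, Ctla2b and Srp14. It holds in control plasma for Ltf, Nkx2-5, Mup3, Pde8a, Dnajc25 and Dbt, and for Mb on both arrays. Some genes counted as detected in HF plasma only lay in that range there too, among them Nppb, Cps1, Cd9 and Myl1. Ngp also lay in that range in HF plasma. Folds given as at least rest on the flag and do not allow for this range.

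With 1 array per condition no test between conditions was possible, and a gene was counted as higher or lower where it was detected on both arrays and differed at least 2-fold. In this way 650 of 1953 genes (33.3%) were higher in HF plasma and 479 (24.5%) were lower. Which direction was the more frequent depended on the rule for detection. With the software's flag for a positive and significant signal, 903 genes were higher and 948 lower, and with no detection filter 1005 and 1301. Over all 12377 probes detected on both arrays, LncRNAs included, 32.1% were higher and 25.6% lower. The median gene was 0.27 higher in HF plasma on the log2 scale, with quartiles of -0.97 and 1.55, and the median was -0.075 and -0.27 under these other rules. A difference of 8-fold or more was reached by 195 genes upward and 147 downward. For each gene, the error that the authors' software gives within an array was combined over both plasma arrays. On the log2 scale this error had a median of 0.22 over the genes and was 0.43 at the most. The choice of background correction and normalization moved many genes by more than this error. Of 38 genes named by rule that differed at least 2-fold, 23 moved by over 1.5-fold under at least 1 of 5 other choices, 15 of them lower in HF plasma, and 4 fell below 2-fold. Another 887 genes were detected in control plasma only, 358 in HF plasma only, 19 on each array through different probes and 253 on neither. Of the genes detected on 1 array only, 31 and 36, respectively, were well above background on the other array too and failed there through an outlier flag.

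**Figure D1:**
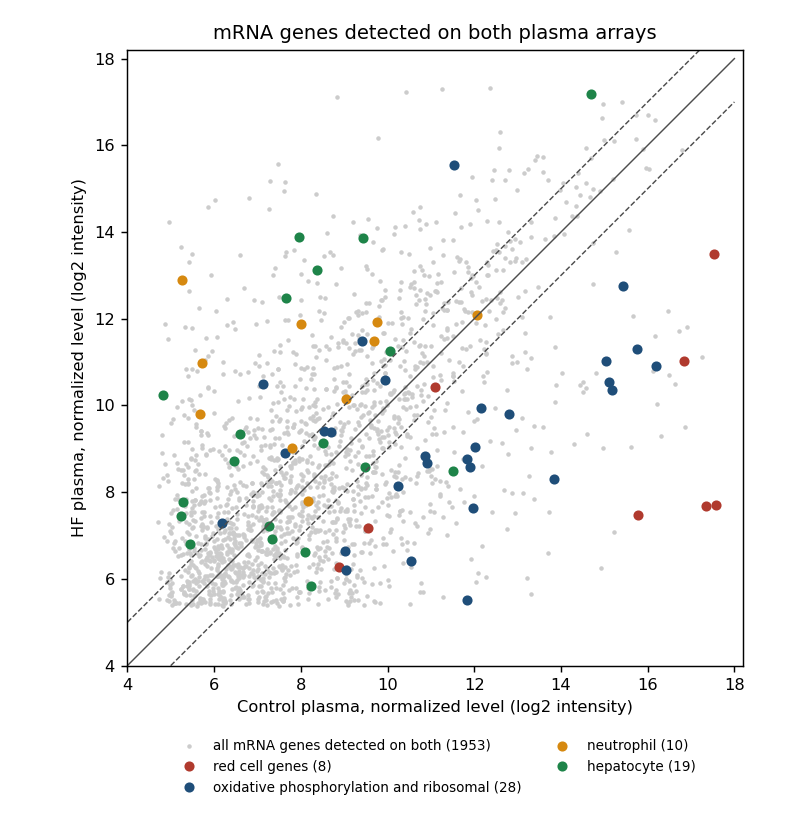
Levels in control plasma (x axis) and HF plasma (y axis), log2 of normalized intensity, of the 1953 mRNA genes detected on both arrays, 1 point a gene. The solid line marks equal levels and the dashed lines 2-fold. Red cell genes except Pklr, and most genes of oxidative phosphorylation and ribosomes, lay below the lines, and most neutrophil and hepatocyte genes above them.

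Probes of the same gene often differed. For 219 genes, 2 or more probes were detected on both plasma arrays. All probes of a gene were at least 2-fold in the same direction for 33 of them and all within 2-fold for 48. Probes lay at least 2-fold in opposite directions for 25, and the median range between probes of a gene was 1.47 on the log2 scale. Rpl38, a ribosomal protein, is an example: 1 probe differed by -5.28 on the log2 scale and the other by 0.88. Each gene is given below by its brightest probe among those detected on both arrays, where it had such a probe, and several genes with disagreeing probes are named.

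Hemoglobin genes had the lowest median difference of the 22 gene lists, HF plasma over control plasma. All 6 hemoglobin genes were detected in control plasma and 4 in HF plasma, and each of these 4 was at least 2-fold lower, with a median log2 difference of -7.05. Hbb-b1 (current symbol Hbb-bt) had an intensity of 427503 in the control and 93.7 in the HF plasma array, which is 945-fold lower after normalization (-9.88 ± 0.21, error within arrays). With the other choices of background correction and normalization its log2 difference ran from -11.42 to -9.38, and that of Hba-a1 from -5.70 to -4.16. Whole blood of HF mice read 17.43 with the same probe. The other β-globin, Beta-s (current symbol Hbb-bs), stood at 16.83 and 11.03 in control and HF plasma. The α-globins Hba-a1 and Hba-a2 stood at 17.53 and 15.77 in control plasma and at 13.49 and 7.47 in HF plasma. Their differences were thus 16.5-fold and 316-fold, although the α-globin genes are nearly identical, as are the β-globin genes, and a probe may read both copies. Hbq1b, a θ-globin, stood at 15.60 in control plasma and at the lowest level in HF plasma, at least 1201-fold lower, and Hbb-bh1, an embryonic globin, was at least 5.16-fold lower. Within the HF slide the median hemoglobin gene was 7.52 lower in plasma than in whole blood on the log2 scale, and within the control slide 0.14 lower.

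The other genes of red cells went the same way. Of 12 red cell genes, 11 were detected in control plasma and 4 in HF plasma, and of the 4 detected on both, 3 were at least 2-fold lower and 0 higher. Over all genes 82.4% were detected in control plasma and 67.1% in HF plasma, and 24.5% of those on both were lower. Bnip3l, which clears mitochondria from reticulocytes, stood at 17.35 in control plasma and 7.69 in HF plasma, 810-fold lower. Of the heme synthesis enzymes, these were detected in control plasma only: Alas2, the first enzyme of the pathway in red cells, at 13.81 (at least 347-fold lower in HF plasma), Alad at 10.24 (at least 29.1-fold), Urod at 10.68 (at least 39.7-fold) and Fech at 11.52 (at least 70.9-fold). Car2, a carbonic anhydrase, was at least 438-fold lower, and Car1 stood at 8.88 and 6.27. Bpgm, which makes 2,3-bisphosphoglycerate, read 15.74 in control plasma, where its spot carried an outlier flag, and 4.88 in HF plasma. Pklr, the pyruvate kinase of red cells and liver, differed less than 2-fold, at 11.09 and 10.43. With arrays scaled to their 75th percentile its log2 difference was -1.10, and with normexp background correction -1.31, both at least 2-fold. These genes were lower in HF than in control whole blood too, by a median of 1.66 on the log2 scale over the 9 detected in both, while hemoglobins differed there by -0.22.

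**Figure D2:**
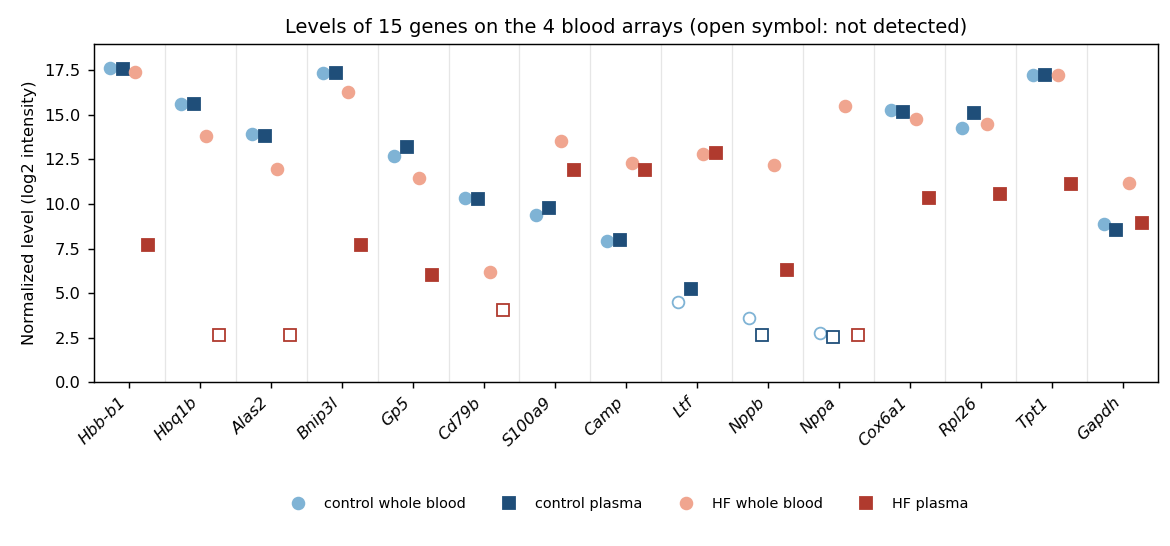
Normalized level (log2 intensity, y axis) of 15 genes on the 2 whole blood arrays (circles) and the 2 plasma arrays (squares), 1 symbol per array. Open symbols were not detected. HF plasma alone lacked the high level of Hbb-b1, Bnip3l, Cox6a1, Rpl26 and Tpt1, HF whole blood alone held Nppa, and both HF arrays stood above both control arrays for S100a9, Camp and Ltf.

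Platelet genes were split. Of 13, 12 were detected in control plasma and 7 in HF plasma. Of the 6 detected on both, 3 were lower (24.5% over all genes) and 2 higher (33.3%), and the median log2 difference was -0.99. This median depended on the rule for detection: it was 2.27 among genes brighter than the 99th percentile of the negative control spots and -3.30 with no filter. The value of 2.27 rests on Pear1 and Tbxa2r alone, the higher genes of the list. Gp5, a subunit of the receptor for von Willebrand factor, stood at 13.22 in control plasma and 6.01 in HF plasma, 148-fold lower, and in whole blood at 12.70 and 11.49. Its partner Gp1bb was 2.89-fold lower. Gp6, the collagen receptor, and Mmrn1, a protein of platelet granules, were not detected in HF plasma and were at least 9.45-fold and 19.7-fold lower. Pear1, a platelet receptor also made by endothelium, was 10.5-fold higher, and Tbxa2r, the thromboxane receptor, 2.21-fold higher. Cd9, a surface protein of platelets and other cells, read 13.22 in control plasma, with an outlier flag, and 5.45 in HF plasma.

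Neutrophil genes were higher in HF plasma. Of the 10 detected on both arrays, 8 were at least 2-fold higher (33.3% over all genes) and 0 lower, with a median log2 difference of 1.98, and another 3 were detected in HF plasma only. Ltf, the lactoferrin of secondary granules, had an intensity of 32.8 in control plasma and 2944 in HF plasma, 198-fold higher after normalization. S100a9 stood at 9.77 in control plasma and 11.92 in HF plasma, 4.46-fold higher, and Camp, the precursor of the antimicrobial peptide cathelicidin, was 14.8-fold higher, with intensities of 197 and 1419. Pglyrp1, which binds peptidoglycan, was 38.2-fold higher and Lcn2, which binds bacterial siderophores, 17.5-fold higher. Stfa1 and Stfa2, cysteine protease inhibitors with near-identical copies, were not detected in control plasma and were at least 3.98-fold and 5.12-fold higher. These bounds do not take the range of the negative control spots into account. Mrgpra2a, a receptor and with S100a9 the brightest of the list, stood at 12.07 and 12.09. Ifitm6, 2.13-fold higher here, was less than 2-fold higher when arrays were scaled to their 75th percentile (0.87 on the log2 scale).

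Some of these genes, S100a9, Ltf and Camp, also read higher in HF than in control whole blood. Over the 7 genes of the list detected on both whole blood arrays, the median log2 difference was 0.36. S100a9 read 9.39 in control and 13.53 in HF whole blood, Ltf 4.50 (not detected) and 12.79, and Camp 7.90 and 12.29. HF plasma lay 1.61 below HF whole blood for S100a9 and 0.10 above it for Ltf on the log2 scale. Ngp, another granule protein, read 10.83 in whole blood of HF mice and 5.49 in their plasma, and Chi3l3 (current symbol Chil3) 11.15 and 4.62, the last not detected. All 16 neutrophil genes were detected in HF whole blood, 13 in HF plasma, 10 in control plasma and 7 in control whole blood. Over the 7 detected on all 4 arrays the median was 0.31 lower in HF plasma than in HF whole blood on the log2 scale and 0.12 lower in control plasma than in control whole blood.

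Genes of other leukocytes had no common direction. Over all genes detected on both arrays, 33.3% were higher and 24.5% lower. Among 14 monocyte and macrophage genes, 2 of 7 detected on both arrays were higher and 2 lower, with a median log2 difference of 0.56. Ly6c2, a surface antigen of inflammatory monocytes, was 5.59-fold higher and Cd68, a lysosomal glycoprotein, 2.50-fold higher, and Msr1, a scavenger receptor, was at least 26.6-fold higher, while Mnda (current symbol Ifi211) was 13.1-fold lower. Among 11 B cell genes, 4 of 8 were lower and 2 higher, with a median of -1.07, which was 0.44 among genes brighter than the 99th percentile of the negative control spots on both arrays. Cd79b, part of the B cell receptor, stood at 10.26 in control plasma and, not detected, at 4.05 in HF plasma. It was also lower in whole blood of HF mice, at 6.21 against 10.34. Cd37, a tetraspanin, was 2.58-fold higher in HF plasma. Pou2f2 was 3.79-fold lower through 1 probe and 0.35 higher on the log2 scale through the other. Among 15 T and NK cell genes, 2 of 7 were higher and 2 lower, with a median of 0.08. Cd3e, a subunit of the T cell receptor complex, stood at 9.16 and 9.24 and Cd247, another subunit, at 9.63 and 9.97. Other probes of Cd247 differed by -1.40 and 1.17 on the log2 scale. Ccr7, which guides T cells to lymph nodes, was at least 17.1-fold lower, and Foxp3, the factor of regulatory T cells, was 6.06-fold higher. Klrk1, an activating receptor of NK cells, read 13.04 and 12.94 with an outlier flag in HF plasma.

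Several heart transcripts were close to background on both plasma arrays, and others were detected there. Nppb had an intensity of 5.31 in control plasma, not above background, and 37.6 in HF plasma, where its level of 6.29 lay below the 12.18 of HF whole blood and the 16.03 of HF heart. Nppa, the atrial natriuretic peptide gene, was at 2.54 in control plasma and at the lowest level in HF plasma, and read 15.52 in HF whole blood. Actc1, Tnnc1 and Tnni3, the cardiac actin and troponins C and I, were not detected in either plasma and read 12.99, 11.96 and 12.31 in HF whole blood. Tnnt2, cardiac troponin T, was detected in both, at 7.52 and 7.19, and another of its probes read 4.82 and 8.48. Of 22 cardiomyocyte genes, 12 were detected in control plasma and 12 in HF plasma, 9 were detected on neither and 22 were detected in HF whole blood. Of the 11 detected on both plasma arrays, 4 were at least 2-fold higher (33.3% over all genes) and 1 lower (24.5%), with a median of 0.33. Nkx2-5, a cardiac transcription factor, was 7.07-fold higher and Mb, myoglobin, 3.23-fold higher, and Atp2a2, the calcium pump of the sarcoplasmic reticulum, was 3.53-fold lower. Cox8b, a heart subunit of cytochrome oxidase, was detected in control plasma and not in HF plasma. The Myh6 probe read 14.36 and 14.38 in plasma but 10.88 in control heart, where α-myosin is abundant, so it did not behave as a heart marker here. Of the other genes of the natriuretic peptide system, Npr1, a receptor, stood at 5.67 and 5.56. Npr3, the clearance receptor, was at 4.82 in control plasma and at the lowest level in HF plasma, and Corin, which cleaves the precursor peptides, was 2.53-fold higher. Of the 5 genes of this system, 2 were detected on both arrays, 1 of them at least 2-fold higher, and the median log2 difference was 0.61.

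Genes of mitochondrial energy supply were lower in HF plasma. Of 19 subunits of oxidative phosphorylation, 14 were detected on both arrays, 11 of them lower (24.5% over all genes) and 3 higher, with a median log2 difference of -2.72. Cox8a and Cox6a1, subunits of cytochrome oxidase, stood at 15.76 and 15.18 in control plasma and at 11.30 and 10.35 in HF plasma, 22.0-fold and 28.4-fold lower. Atp5k, of ATP synthase, was 46.1-fold lower and Cox7a2 79.9-fold lower. Cox5a read 13.64, with an outlier flag, and 7.73. The 3 higher genes were Atp5g1 (10.4-fold), Ndufv3 (2.42-fold) and the muscle form Cox6a2 (2.14-fold). In whole blood the median of the list was 0.39 higher in HF than in control mice, and within the HF slide plasma lay 3.77 below whole blood on the log2 scale.

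Ribosomal and other abundant mRNAs were lower as well. Among 24 cytosolic ribosomal proteins, 9 of 14 detected on both arrays were lower (24.5% over all genes) and 2 higher (33.3%), with a median of -2.76, and 8 were detected in control plasma only. Rps15 stood at 15.43 and 12.76, Rpl26 at 15.10 and 10.55 and Rps4x at 12.81 and 9.81. Rps2 went the other way, at 11.54 and 15.54. Among 17 widely expressed abundant genes, 8 of 10 were lower and 0 higher, with a median of -3.91. Tpt1, a growth-related protein also known as TCTP, stood at 17.26 and 11.11, 71.1-fold lower, and Oaz1, the antizyme of polyamine synthesis, at 16.91 and 11.82, 34.2-fold lower. With arrays scaled to their 75th percentile these differences were -7.88 and -6.60 on the log2 scale, against -6.15 and -5.09. B2m, the light chain of MHC class I, was 62.5-fold lower and Actg1, an actin, 23.3-fold lower. Actb, Ftl1 and Ppia carried an outlier flag in control plasma and read 14.19, 14.91 and 13.18 there against 11.15, 8.60 and 9.38 in HF plasma. Gapdh, the usual reference gene, differed less than 2-fold in plasma, at 8.55 and 8.95, although it read 8.86 and 11.19 in control and HF whole blood.

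**Figure D3:**
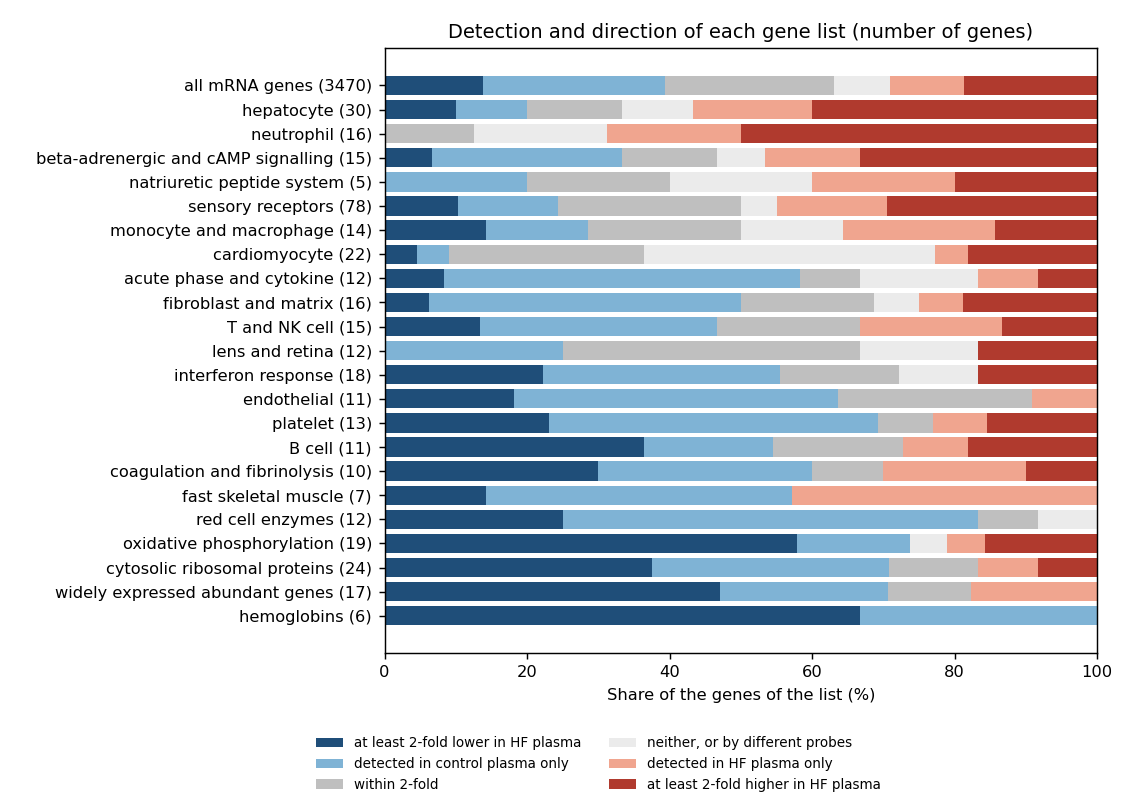
Share (%) of the genes of each list (number of genes beside its name) that were at least 2-fold lower or higher in HF plasma, within 2-fold, detected on 1 plasma array only, or detected on neither or by different probes. Lists are ordered by their median log2 difference, with all 3470 mRNA genes at the top. Genes detected in HF plasma only include those whose control spot carried an outlier flag. Hemoglobins had no gene that was higher and neutrophil genes none that was lower, and each of these also held for other lists.

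Transcripts typical of the liver were more often higher than lower in HF plasma. The same held for all genes together and for several other lists, neutrophil, β-adrenergic and sensory receptor genes among them. Of 30 hepatocyte genes, 19 were detected on both arrays, 12 of them at least 2-fold higher (33.3% over all genes) and 3 lower (24.5%), with a median log2 difference of 2.21. The median was 1.08 with normexp background correction and 1.28 among genes detected on all 4 blood arrays. Serpina11, a protease inhibitor, stood at 7.96 and 13.89, 60.9-fold higher, and Hc, complement C5, at 8.36 and 13.12, 27.1-fold higher. Apoc4, an apolipoprotein, was 21.6-fold higher. Mup3, of the major urinary proteins, was 42.6-fold higher, and the others of that family share near-identical copies. Cps1, of the urea cycle, was at 2.54 in control plasma and detected at 6.76 in HF plasma, at least 4.35-fold higher. Itih4, F7 and F10 were lower, by 8.15-fold, 5.26-fold and 2.78-fold. Ugt2b36 read 14.69 and 17.19 in plasma and also 14.73 in control heart, so its probe is not specific to liver. Apoc1 was 28.1-fold higher through 1 probe and 0.31 lower on the log2 scale through the other. Among genes brighter than the 99th percentile of negative control spots on both arrays, a limit chosen after the values were seen, the median was 2.49 for hepatocyte, 1.98 for neutrophil, -4.92 for hemoglobin and -0.66 for red cell enzyme genes. Under the same limit it was 0.94 over all genes, 2.05 for sensory receptors, 2.27 for platelet and 1.47 for T and NK cell genes. It was -2.66 for oxidative phosphorylation, -2.35 for ribosomal and -4.29 for the other abundant genes. Some lists kept few genes under this limit. The hemoglobin median there rests on Hba-a1 and Beta-s alone and that of red cell enzymes on Pklr alone. That of platelet genes rests on Pear1 and Tbxa2r alone. Within the HF slide hepatocyte genes were a median of 2.26 higher in plasma than in whole blood on the log2 scale, and within the control slide 0.16 lower.

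Genes of the β-adrenergic pathway, which isoproterenol activates, were more often higher than lower among those detected on both arrays. Gnas, which encodes the stimulatory G protein, was at least 29.2-fold lower. Of 15 genes of the list, 8 were detected on both arrays, 5 of them higher (33.3% over all genes) and 1 lower (24.5%), with a median of 1.65, or -0.23 with no detection filter. Phosphodiesterases break down cAMP: Pde8a stood at 5.48 and 13.50, 259-fold higher, Pde4b was 4.01-fold higher, and Pde7a differed less than 2-fold through 1 probe, while its other probe was not detected in control plasma, at 2.51, and read 9.11 in HF plasma. Adcy3, an adenylyl cyclase, was 3.74-fold higher and Nr4a1, an early response gene to cAMP, 2.64-fold higher, while Nr4a2 was 3.22-fold lower.

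Genes of inflammation, vessel and matrix had mixed directions. Their counts stand beside 33.3% higher and 24.5% lower over all genes detected on both arrays. In the list of 12 acute phase and cytokine genes, 6 were detected in control plasma only and 3 on both arrays, with a median of 0.21: Cebpb at 8.42 and 8.63, Socs3 at 8.26 and 7.20 and Cxcl2 at 5.76 and 7.44. In the list of 18 interferon response genes, 4 of 10 were lower and 3 higher, with a median of -0.42. Ifi47 was 14.6-fold lower and Ifit1 at least 29.5-fold lower, and Isg20 stood at 14.57 and 15.12. Of 16 fibroblast and matrix genes, 3 of 7 were higher and 1 lower, with a median of 0.09. Mgp, which inhibits calcification, was 5.64-fold higher and Fbln2, a fibulin, 15.7-fold higher. Dcn, the proteoglycan decorin, was 9.49-fold lower, and Ctgf (current symbol Ccn2) at least 9.13-fold lower. Fap read 13.92, with an outlier flag, and 7.79. Of 11 endothelial genes, 2 of 5 were lower and 0 higher, with a median of -0.63. Tfpi stood at 10.46 and 10.14 and Eng at 9.71 and 8.57, and Cav1 was at least 17.5-fold lower. Of 10 genes of coagulation and fibrinolysis, 3 of 5 were lower and 1 higher, with a median of -1.20, which was 0.44 among genes brighter than most negative control spots. The higher one was Proc, protein C, at 10.05 and 11.25, while Serpine2 read 12.54, with an outlier flag, and 13.35. The median of 0.44 rests on Proc and Tfpi alone.

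Eye and skeletal muscle genes were followed because blood was drawn at the eye, where lens, retina and the muscles of the orbit could add RNA. Of 12 lens and retina genes, 10 were detected in control plasma and 7 in HF plasma. Among the 7 detected on both, 2 were higher (33.3% over all genes) and 0 lower (24.5%), with a median of -0.12. Crygc, a lens crystallin, stood at 9.40 and 9.05 and Rom1, of photoreceptor discs, at 9.76 and 10.51, while Bfsp1, of the lens skeleton, was at 10.21 in control plasma and at the lowest level in HF plasma. Of 7 genes of fast skeletal muscle, 4 were detected on each array. Tnnt3, fast troponin T, was 4.12-fold lower (-2.04 on the log2 scale), and this gene alone was detected on both, so that the median of the list is that of 1 probe. Another Tnnt3 probe went the other way, from 4.81 in control plasma, not detected, to 8.59 in HF plasma. Myl1 read 10.93, with an outlier flag, and 6.45. The part of such RNA in the differences above was not tested.

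Sensory receptor genes served as a group typical of sensory organs rather than of blood. Of 78 odorant, pheromone and taste receptor genes, 62 were detected in control plasma and 63 in HF plasma, and in whole blood 45 in control and 64 in HF mice. In plasma these shares were 79.5% and 80.8%, against 82.4% and 67.1% over all genes. Of the 51 detected on both plasma arrays, 23 were higher in HF plasma (45.1%, against 33.3% over all genes). Another 8 were lower (15.7%, against 24.5%), and the median was 0.57. Olfr1465, an odorant receptor, stood at 12.36 and 17.32, 31.2-fold higher, and Olfr314 at 13.32 and 14.24. Being detected by the flag on these arrays therefore included genes of this kind, and a difference of 2-fold in HF plasma was reached by 31 of them.

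Among genes detected on both arrays, the largest differences upward belonged to genes of no common function. Dnajc25, a co-chaperone, stood at 4.96 in control plasma and 14.22 in HF plasma, 611-fold higher, and read between 5.64 and 8.10 on the other 4 arrays. Ring1, of the Polycomb complex, was 426-fold higher and Gm364 419-fold. Dbt, of the degradation of branched-chain amino acids, was 343-fold higher, Rnaset2a, a ribonuclease, 311-fold and Acvr1c, a receptor of the TGF-β family, 275-fold. Gm13051 (current symbol Zfp987) was the brightest gene not above background in control plasma, at 3.94 and 14.35, at least 840-fold higher. For all 7, HF plasma exceeded each of the other 5 arrays by 2-fold or more. The 7 were chosen by their HF plasma values, and the same held for 440 of the 650 higher genes.

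Among genes detected on both arrays, the largest differences downward, besides Hbb-b1, Bnip3l and Hba-a2, were those of Tspyl1, Ctla2b and Srp14. Tspyl1 stood at 14.92 and 6.25 (407-fold) and Ctla2b, related to inhibitors of cathepsins, at 15.23 and 7.08 (283-fold). Srp14, of the signal recognition particle, stood at 13.31 and 5.64 (203-fold). Ctla2b has a second probe, which carried an outlier flag in control plasma and read 13.50 and 5.41. The brightest genes counted as detected on 1 array only were mostly outlier spots: Gm14378 (current symbol Tgfbr3l), Arg2 and Taf9 read 13.56, 14.04 and 14.56 in control plasma, where they were flagged, and 14.09, 13.77 and 13.74 in HF plasma. Boll, Dbn1 and Amigo1 read 15.02, 14.87 and 14.77 in control plasma and 14.72, 16.33 and 16.09 in HF plasma, where they were flagged.

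**Figure D4:**
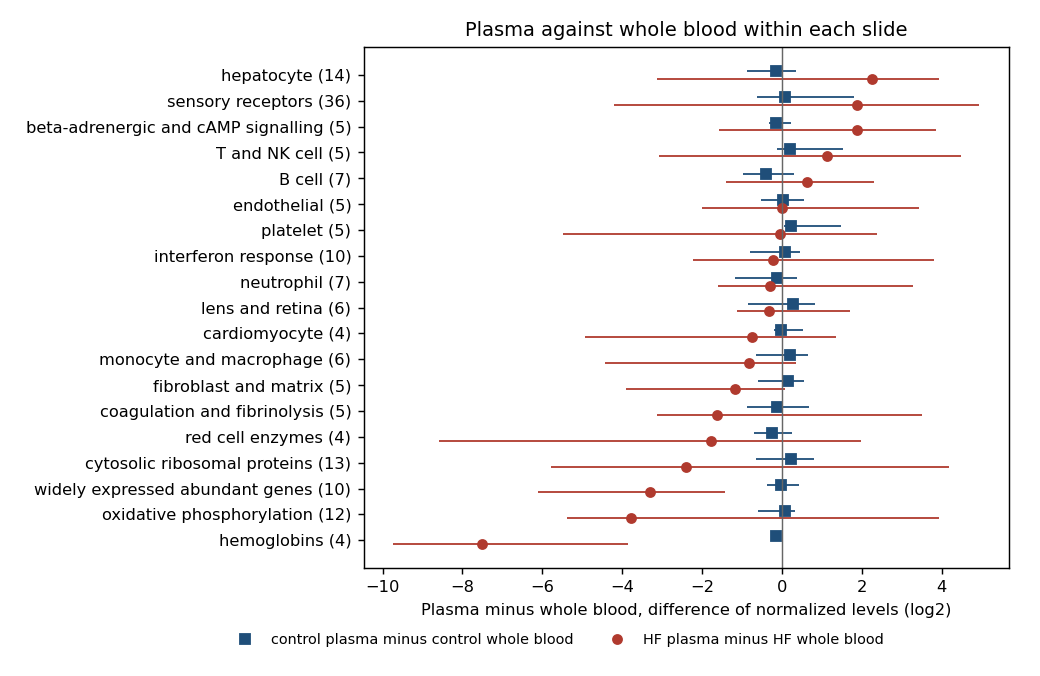
Plasma minus whole blood, difference of normalized levels (log2, x axis), within the control slide (squares) and the HF slide (circles), for each list with at least 4 genes detected on all 4 blood arrays (number beside the name). Symbols are medians and lines run from the lowest to the highest gene. Control medians lay near 0 for every list shown, and HF medians ran from -7.52 for hemoglobins to 2.26 for hepatocyte genes.

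Genes that were abundant in whole blood were more often lower in HF plasma. This order was chosen after the values were seen and is not independent of the difference. Control whole blood was close to control plasma (rho of 0.94), so that ordering by it orders genes largely by the control side of the difference, and HF whole blood too was closer to control plasma (0.72) than to HF plasma (0.45). The shares are therefore a description only. The genes were split by their whole blood level into those not detected there and 4 groups of equal size. Of the 317 not detected in control whole blood, 52.4% were higher in HF plasma and 4.73% lower. In the group that was brightest in control whole blood, 24.7% were higher and 40.3% lower. Ordered by HF whole blood, on the slide of HF plasma, the 279 genes not detected there were higher in 35.8% and lower in 10.8%, and the brightest group was higher in 27.5% and lower in 42.1%.

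**Figure D5:**
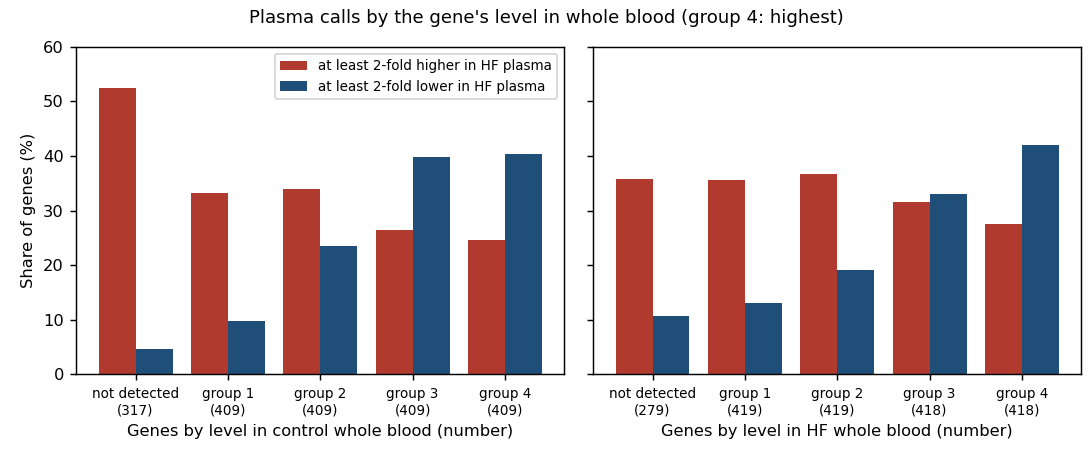
Share (%) of the mRNA genes detected on both plasma arrays that were higher or lower in HF plasma by 2-fold or more, for genes not detected in whole blood and for 4 groups of rising level there (number of genes below each pair of bars), by control whole blood (left) and HF whole blood (right). The share of lower genes was 4.73% and 10.8% for genes not detected and 40.3% and 42.1% in the highest groups.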

How the data were processed

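The 6 arrays are Agilent arrays of 1 colour on 2 slides. The deposited scanner files hold intensity values that the authors' software, Feature Extraction 11.0.1.1, had corrected for background but not normalized. The whole-series table, also deposited, held the same values, with 0 spots that differed. Control spots were left out, spots of a probe were averaged as log2 intensity, and the 59729 probes were quantile normalized over 6 arrays. The authors' methods state quantile normalization without naming the set of arrays. Depth has no meaning for an array, and its number of arrays limits the precision. Of the probes, 4093 carry an mRNA name in the part of the authors' annotation held here, and 3977 of their accessions are in RefSeq, which gave the current symbols.

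A gene was read from its brightest probe among those detected on both plasma arrays. Without such a probe, the brightest of those detected on 1 plasma array was taken, or else the brightest of all. Where a probe was not well above background on 1 array, a fold is given as at least the ratio to the higher of its own level and the lowest level well above background on that array. That lowest level, 4.64 on control and 5.37 on HF plasma, lay within the range of the negative control spots, so that these folds hold by the flag only. Errors are those of Feature Extraction within an array, and cover no animals. Promoters were matched by symbol.

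The members, the 22 lists and the alternatives were chosen with earlier results of these data known. Genes were named by rule: Hbb-b1, Gp5, S100a9, Nppb, Gapdh, the 2 brightest of each list, the 6 largest rises and 6 largest falls, and the 4 brightest detected on each array only. Other members were named for their role after their values were seen. Values of some members are not reported here. Steps were tested on simulated arrays. Alternatives are described at the end, with normexp from limma 3.58.1 in R 4.3.3. The planned relation of transcript length and level was not run, since the lengths held here are those of genes.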

Additional observations from a re-analysis of the deposited data

Results flagged for a closer look

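For 3 of the named genes detected on all 4 blood arrays, HF was at least 2-fold higher in plasma and at least 2-fold lower in whole blood. The difference between plasma and whole blood rests on 1 array for each condition and was not tested. Cd37 was 1.37 higher in plasma and fell by 1.39 in whole blood on the log2 scale, 2.76 apart. Pde4b was 4.01-fold higher in plasma and fell by 1.68 on the log2 scale in whole blood, 3.68 apart. Proc was 1.20 higher in plasma and fell by 2.48 in whole blood, 3.67 apart, and its other probe was not detected in HF plasma. With arrays scaled to their 75th percentile, Cd37 and Proc were less than 2-fold higher in plasma, by 0.99 and 0.84 on the log2 scale.

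Negative control spots, which carry no gene and served above only as a limit for low signals, were well above background in 12.4% of 1200 spots of HF plasma and in 4.33% of control plasma. Their 99th percentile signal was 111 on the HF and 39.5 on the control plasma array. The intensity of Nppb in HF plasma, 37.6, and that of Hbb-b1, 93.7, lay below that percentile.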

How the results depend on the processing

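Most results were also computed with other settings. Scaling to the 75th percentile gave 586 higher and 512 lower genes and a median log2 difference of 0.12, against 650, 479 and 0.27, and scaling to the 75th percentile of the probes detected on all 6 arrays, chosen after seeing the data, gave 704, 418 and 0.46. Quantile normalization over the 2 plasma or the 4 blood arrays, normexp, ignoring outlier flags and averaging probes kept the higher genes between 541 and 668 and the lower between 394 and 511. The rule for detection moved the counts most. With the flag for a positive and significant signal, 903 of 2926 genes were higher and 948 lower, the median was -0.075, and the genes detected on 1 array only were 130 for HF and 381 for control plasma. Without a detection filter, 1005 genes were higher and 1301 lower and the median was -0.27. Requiring a signal above the 99th percentile of negative control spots, chosen after seeing the data, left 158 lower genes and a median of 0.94, and 142 and 1433 genes on the HF and the control array only. At 4-fold, 379 were higher and 273 lower. The median of β-adrenergic genes became -0.23 with no filter, and above negative controls those of B cell genes and coagulation became 0.44 and 0.44, of platelet genes 2.27, of interferon response genes 0.95 and of lens and retina genes 0.75. Above negative controls the platelet median rests on Pear1 and Tbxa2r alone and that of coagulation on Proc and Tfpi alone. Medians under 0.6 in size changed sign under other settings too: fibroblast and matrix genes reached -1.25 with no filter, acute phase genes -0.42 and sensory receptors -0.06 among genes detected on all 4 blood arrays, and T and NK cell genes -0.10 with no filter. None of the 50 named genes with a difference changed direction where it was at least 2-fold (38 genes, the alternatives that gave a value). Counts detected on 1 array have no value without a filter or with genes detected on all 4 blood arrays. The cause of these shifts was not tested. No paired analysis was possible because each condition has 1 array. Signal over background limits low levels, above all in HF plasma.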
